A study of Mus musculus with 6 samples.

Results

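Chemokine ligand transcripts were followed in mouse regulatory T cells (Tregs) that had been induced in culture with or without DEL-1. The set holds 9 of the 39179 genes in the count tables: Xcl1, Ccl1, Ccl3, Ccl4, Ccl5, Ccl17, Ccl20, Ccl22 and Cxcl10. Each was found through its Ensembl identifier and the GRCm38 annotation, by symbol, and all 9 were present. The study sequenced polyA RNA of Tregs given DEL-1-Fc (3 libraries) or the Fc control alone (3 libraries); DEL-1 is a secreted protein that binds integrins, here joined to the Fc part of an antibody. Both groups started from naive splenic CD4+ T cells of wild type C57BL/6 mice aged 6 weeks. For 3 days, all cultures received the cytokines TGF-β1 (5 ng/ml) and IL-2 (40 ng/ml) together with coated anti-CD3 (2 µg/ml) and anti-CD28 (1 µg/ml), so the T cell receptor stimulus and the Treg-inducing cytokine are shared by both groups. Whether the replicates are separate mice or separate cultures is not stated, so every p-value here reflects the spread among these 6 libraries, and part of that spread may be technical.

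Chemokines are small secreted proteins that attract cells carrying the matching G protein-coupled receptor. Activated T cells secrete several of them: XCL1 attracts the dendritic cells that cross-present antigen, CCL1 binds CCR8, CCL3, CCL4 and CCL5 are inflammatory CC chemokines that attract T cells and monocytes, and CXCL10 attracts CXCR3-bearing T cells. CCL17 and CCL22 bind CCR4, which Tregs carry, and CCL20 binds CCR6, a receptor of Th17 cells and of Treg subsets in the gut.

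Xcl1 and Ccl1 transcripts were higher in DEL-1-Fc Tregs than in Fc Tregs, by 3.51-fold and 4.30-fold. Ccl5 and Cxcl10 were lower, by 2.90-fold and 2.80-fold. Ccl3, Ccl4, Ccl20 and Ccl22 did not pass the test, and Ccl17 was too low to test. A gene was called where edgeR's quasi-likelihood test gave a Benjamini-Hochberg adjusted p under 0.05. Of the 8 ligands tested, 4 were called, or 2 higher and 2 lower, against 12.6% of the 14928 genes tested (6.40% higher and 6.22% lower). Their median log2 fold change was 0.06, against 0.01 over all genes tested. The libraries of the groups did not overlap for 5 of the 8, against 34.8% of all genes tested.

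The sequences before the transcription start are shown for Xcl1 and Ccl1, which rose most among these ligands, and for Cxcl10, which fell. Each is the RefSeq window of 250 bases that ends just before RefSeq's annotated start (GRCm38.p6, minus strand, printed 5′ to 3′ along the gene): chr1:164935523-164935772 for Xcl1, chr11:82179813-82180062 for Ccl1 and chr5:92348890-92349139 for Cxcl10. Capitals mark matches on either strand to 4 motifs, and matches to different motifs can overlap. For Ccl1 this start is that of the protein-coding transcripts, and the GENCODE span of the gene reaches further upstream through a non-coding transcript. The kappa-B like motif is GGGA, any 4 bases and CC, the NFAT core is GGAAA, the AP-1 motif is TGANTCA, and the interferon-response like motif is GAAA, any 2 bases and GAAA.
Xcl1: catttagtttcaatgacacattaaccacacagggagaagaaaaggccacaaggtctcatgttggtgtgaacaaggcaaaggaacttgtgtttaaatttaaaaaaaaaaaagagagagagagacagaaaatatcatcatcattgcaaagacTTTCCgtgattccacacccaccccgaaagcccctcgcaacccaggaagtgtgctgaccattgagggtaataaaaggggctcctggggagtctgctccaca
Ccl1: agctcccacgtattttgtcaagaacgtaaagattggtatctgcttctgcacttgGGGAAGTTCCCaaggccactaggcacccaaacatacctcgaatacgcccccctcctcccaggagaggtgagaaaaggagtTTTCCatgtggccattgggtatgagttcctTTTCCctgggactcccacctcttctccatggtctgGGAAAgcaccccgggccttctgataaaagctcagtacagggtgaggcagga
Cxcl10: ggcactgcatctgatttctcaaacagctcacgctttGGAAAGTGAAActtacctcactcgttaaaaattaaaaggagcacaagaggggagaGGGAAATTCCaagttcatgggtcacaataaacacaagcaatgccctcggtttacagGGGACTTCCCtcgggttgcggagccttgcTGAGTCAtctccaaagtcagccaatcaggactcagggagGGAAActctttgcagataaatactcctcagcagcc
The Xcl1 window held 1 match in all, a GGAAA on the opposite strand at bases 151 to 155 of the window. The Ccl1 window held overlapping kappa-B like matches on both strands between bases 55 and 65, and 3 GGAAA matches. The Cxcl10 window held the interferon-response like motif at bases 38 to 47, the kappa-B like motif at bases 92 to 101 and 148 to 157, TGANTCA at bases 177 to 183, and 3 GGAAA matches. No RefSeq window was found for Ccl4 or for Ccl5, which also fell. RefSeq windows were found for 7 of the 9 genes. Of these, 4 held the kappa-B like motif (17.6% of 32851 windows did), 6 held GGAAA (55.6%), 1 held TGANTCA (6.75%) and 1 held the interferon-response like motif (2.98%). GGAAA can lie inside the kappa-B like motif and can overlap the interferon-response like one, so these counts are not separate. A match describes these letters and does not show that a factor binds.

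Levels of one gene across libraries are given as CPM, the gene's counts scaled to the TMM-adjusted library size. Xcl1 (ENSMUSG00000026573, GRCm38 chr1:164931644-164935527, minus strand), the only XC ligand of the mouse, had 253.6, 264.5 and 257.5 CPM in DEL-1-Fc libraries, against 80.1, 67.1 and 73.6 CPM in Fc libraries. Every DEL-1-Fc library was above every Fc library, and the DEL-1-Fc values lay close together, with a coefficient of variation of 2.13%, against 8.83% in Fc libraries. The means were 258.5 ± 5.5 CPM with DEL-1-Fc and 73.6 ± 6.5 CPM with Fc (SD, n = 3 each), a log2 fold change of 1.81 (SE 0.08, 95% interval 1.64 to 1.98, edgeR adjusted p = 1.47e-05). The counts behind these values were 8324, 14951 and 15267 in DEL-1-Fc libraries and 4548, 4114 and 4040 in Fc libraries. The count is uncertain in one respect: an exon of Xcl1 overlaps a predicted gene on the other strand, which has no row of its own in the files, and the sources do not state whether strand was used.

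Ccl1 (ENSMUSG00000020702, chr11:82176657-82305690, minus strand) encodes the ligand of CCR8, a receptor that marks activated Tregs. It had 50.3, 43.7 and 33.4 CPM in DEL-1-Fc libraries, against 9.88, 10.1 and 9.65 CPM in Fc libraries. The groups did not overlap. Here the spread was the other way round from Xcl1, wide among DEL-1-Fc libraries (coefficient of variation 20.0%) and narrow among Fc libraries (2.11%). The means were 42.5 ± 8.48 CPM with DEL-1-Fc and 9.87 ± 0.21 CPM with Fc (SD, n = 3 each), with a log2 fold change of 2.10 (SE 0.14, 95% interval 1.79 to 2.42, edgeR adjusted p = 7.26e-05). By this log2 fold change Ccl1 ranked 56 and Xcl1 ranked 84 from the top of the 14928 genes tested. The count of Ccl1 is per gene, so it does not separate the protein-coding transcripts from the non-coding one.

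**Figure D1:**
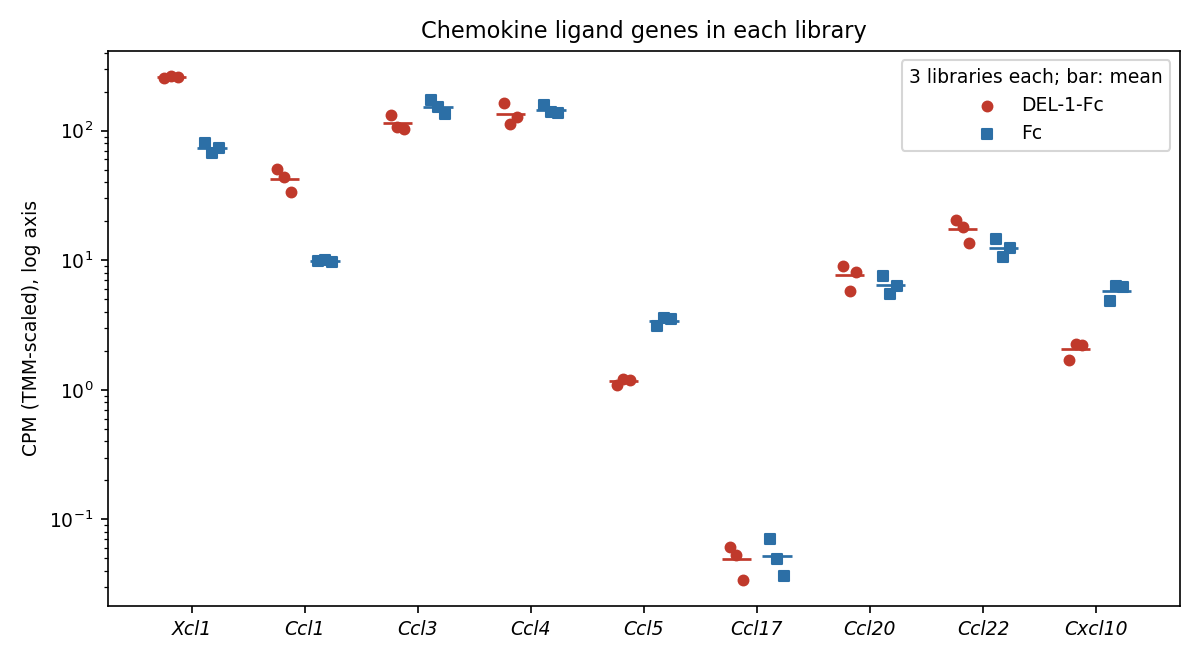
CPM of the 9 chemokine ligand genes in each library on a log axis, with DEL-1-Fc points (3 libraries) left of Fc points (3 libraries) and a bar at each mean. Xcl1 and Ccl1 points lie higher with DEL-1-Fc, Ccl5 and Cxcl10 points lie lower, and the points of Ccl4, Ccl17, Ccl20 and Ccl22 overlap between the groups.

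The inflammatory CC ligands Ccl3, Ccl4 and Ccl5 did not behave as one group. Ccl5 (ENSMUSG00000035042, chr11:83525778-83530518, minus strand), also called RANTES, had 1.10, 1.22 and 1.18 CPM in DEL-1-Fc libraries and 3.10, 3.56 and 3.51 CPM in Fc libraries. The groups did not overlap, with means of 1.17 ± 0.06 CPM with DEL-1-Fc and 3.39 ± 0.25 CPM with Fc (SD, n = 3 each). Ccl5 fell by 1.53 on the log2 scale (SE 0.14, 95% interval -1.85 to -1.22, edgeR adjusted p = 0.000294), at counts of 36, 69 and 70 with DEL-1-Fc and 176, 218 and 193 with Fc.

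Ccl3 (ENSMUSG00000000982, chr11:83647844-83649355, minus strand), which encodes MIP-1α, had 133.2, 106.1 and 102.4 CPM in DEL-1-Fc libraries, against 171.2, 151.8 and 133.8 CPM in Fc libraries. The groups did not overlap, but only just: the highest DEL-1-Fc library and the lowest Fc library lay side by side. The log2 fold change was -0.42 (SE 0.12, 95% interval -0.69 to -0.15), and its edgeR adjusted p of 0.0519 missed the threshold. Ccl3 was called lower in 4 of 12 alternatives, among them DESeq2 (adjusted p = 0.00742), library sizes alone (0.0499) and the fit that leaves out DEL-1-Fc replicate 1 (log2 fold change -0.55, adjusted p = 0.0130). Over the 12 alternatives run its adjusted p ranged from 0.00742 to 0.204.

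Ccl4 (ENSMUSG00000018930, chr11:83662584-83664683, plus strand), which encodes MIP-1β, had 163.3, 113.1 and 126.5 CPM in DEL-1-Fc libraries and 158.2, 138.2 and 138.0 CPM in Fc libraries. DEL-1-Fc replicate 1 was the highest of all 6 libraries and the other two DEL-1-Fc libraries were the lowest, so the groups overlapped. The log2 fold change was -0.11 (SE 0.13, 95% interval -0.41 to 0.19, edgeR adjusted p = 0.628). The value rests on single DEL-1-Fc libraries: Ccl4 was called lower without replicate 1 (log2 fold change -0.27, adjusted p = 0.0336), and the difference was 0.00 without replicate 2 (adjusted p = 1.00, and 0.0336 to 1.00 over 12 alternatives).

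The CCR4 ligands were low or not called. Ccl22 (ENSMUSG00000031779, chr8:94745590-94751699, plus strand) had 20.3, 18.0 and 13.5 CPM in DEL-1-Fc libraries and 14.5, 10.6 and 12.4 CPM in Fc libraries. The groups overlapped, since DEL-1-Fc replicate 3 lay below Fc replicate 1. The log2 fold change was 0.46 (SE 0.16, 95% interval 0.09 to 0.84, edgeR adjusted p = 0.105). It was called higher by DESeq2 (adjusted p = 0.0427) and once DEL-1-Fc replicate 3 was left out (log2 fold change 0.61, adjusted p = 0.0415), within a range of 0.0415 to 0.312 over 12 alternatives. Ccl17 (ENSMUSG00000031780, chr8:94810453-94812036, plus strand) had 2, 3 and 2 counts in DEL-1-Fc libraries and 4, 3 and 2 counts in Fc libraries. These are near the 3 counts that a count of 0 would allow, which is 0.0914 CPM in the shallowest and 0.0490 CPM in the deepest library, so a difference in Ccl17 was not detectable at this depth.

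Ccl20 (ENSMUSG00000026166, chr1:83116766-83119167, plus strand), the only known chemokine ligand of CCR6, had 9.05, 5.77 and 8.10 CPM in DEL-1-Fc libraries and 7.61, 5.47 and 6.36 CPM in Fc libraries. The groups overlapped, and the spread within each was as wide as the gap between them. The log2 fold change was 0.23 (SE 0.18, 95% interval -0.18 to 0.65, edgeR adjusted p = 0.449), and Ccl20 was called in 0 of 12 alternatives (adjusted p 0.132 to 0.778, unadjusted p = 0.232 in all 6 libraries).

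Cxcl10 (ENSMUSG00000034855, chr5:92346638-92348889, minus strand), an interferon-inducible CXCR3 ligand, had 1.71, 2.26 and 2.23 CPM in DEL-1-Fc libraries, against 4.85, 6.36 and 6.25 CPM in Fc libraries. The groups did not overlap, and replicate 1 was the lowest library of both. The means were 2.07 ± 0.31 CPM with DEL-1-Fc and 5.82 ± 0.85 CPM with Fc (SD, n = 3 each). Cxcl10 fell by 1.49 on the log2 scale (SE 0.16, 95% interval -1.86 to -1.11, edgeR adjusted p = 0.000651). An exon of Art3 on the other strand overlaps Cxcl10, but Art3 had at most 3 counts in any library.

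DEL-1-Fc replicate 1 stood apart from the other DEL-1-Fc libraries. It was the shallowest, with 33364166 counts against up to 61967687. The first principal component over all genes tested (44.0% of the variance) held it at -47.7 and the other DEL-1-Fc libraries at -14.3 and -12.8. Fc libraries lay at 22.7 to 27.5 on that component. The second component (23.3% of the variance) also set replicate 1 apart from the other DEL-1-Fc libraries. Replicate 1 was the highest DEL-1-Fc library for 5 of the 8 ligands tested and the lowest for 3, namely Xcl1, Ccl5 and Cxcl10. Without it, Xcl1, Ccl1, Ccl5 and Cxcl10 were still called, and Ccl3 and Ccl4 were also called lower. What sets this library apart was not tested.

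Summed over the 9 ligands, chemokine ligand CPM were 632.6, 554.7 and 544.9 in DEL-1-Fc libraries and 449.6, 393.3 and 383.6 in Fc libraries. The sums did not overlap, and the ratio of the means was 1.41 (577.4 ± 48.1 with DEL-1-Fc and 408.8 ± 35.6 CPM with Fc, SD, n = 3 each). Xcl1 carried this difference: the other 8 ligands summed to 379.0, 290.2 and 287.4 CPM in DEL-1-Fc libraries and 369.5, 326.1 and 310.1 CPM in Fc libraries, which overlapped, with a ratio of 0.951. In bulk RNA a change in the number of cells making a transcript and a change in RNA per cell cannot be told apart.

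Between genes, levels were compared per length, as TPM, in which counts are scaled by the exon length of each gene and then by the library. Xcl1 averaged 1664 ± 129 TPM in DEL-1-Fc libraries and 474.8 ± 42.4 TPM in Fc libraries (SD, n = 3 each). By mean TPM it ranked 51 of 37693 genes with DEL-1-Fc and 313 with Fc. In DEL-1-Fc libraries the order was Xcl1, Ccl4, Ccl3, Ccl1, Ccl22, Ccl20, Ccl5, Cxcl10 and Ccl17, and only the neighbours Ccl22 and Ccl20 overlapped in their ranges. In Fc libraries it was Ccl4, Ccl3, Xcl1, Ccl22, Ccl20, Ccl1, Ccl5, Cxcl10 and Ccl17, where Ccl4 overlapped Ccl3, Ccl22 overlapped Ccl20 and Ccl20 overlapped Ccl1.

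Xcl1 thus took 56.4% of the TPM of the 9 ligands in DEL-1-Fc libraries (51.3% to 59.6%) and 24.3% in Fc libraries (23.1% to 25.8%). Ccl4 took 23.0% with DEL-1-Fc and 37.9% with Fc, and Ccl3 took 16.8% with DEL-1-Fc and 34.3% with Fc. Shares add up to the whole, so the share of each ligand also moves with the level of Xcl1. Part of the order depends on the annotated lengths. Over all exons Ccl1 has 2369 bases, while its longest protein-coding transcript has 611. With coding transcript lengths Ccl1 averaged 158.7 TPM with DEL-1-Fc and 37.3 TPM with Fc and was the fourth ligand in both groups. In Fc libraries Ccl5 then came before Ccl22 and Ccl20 by mean TPM. The ranges of Ccl5 (13.5 to 15.5 TPM) and Ccl22 (11.1 to 15.2 TPM) overlapped there. Xcl1 then took 53.2% with DEL-1-Fc and 23.6% with Fc, and ranked 100 of 37607 genes with DEL-1-Fc and 523 with Fc.

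**Figure D2:**
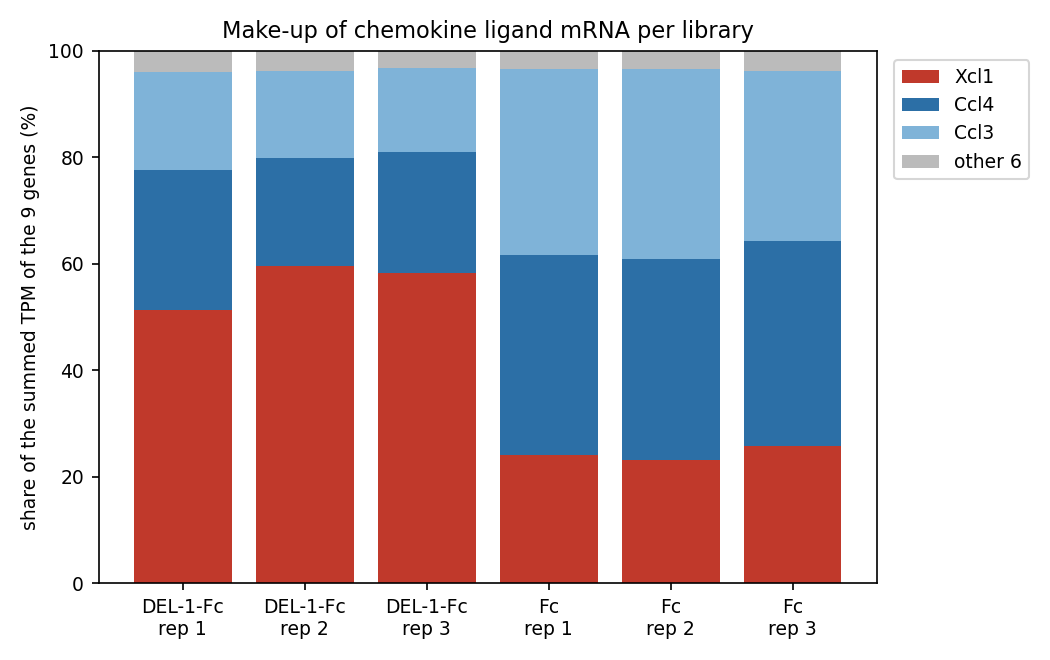
Share of each ligand in the summed TPM of the 9 ligands (percent, stacked bars that start at 0), for the 3 DEL-1-Fc libraries on the left and the 3 Fc libraries on the right. The Xcl1 segment spans 51.3% to 59.6% in DEL-1-Fc libraries and 23.1% to 25.8% in Fc libraries.

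Over the whole chemokine ligand family (39 mouse genes), the 9 ligands made up 98.5% to 98.9% of the CPM of each library. Of the 30 other genes, 7 were tested. Of the 23 under the filter, 15 had 0 counts in every library and the other 8 reached at most 12 counts. Of the 15 family genes tested, 3 were called higher and 3 lower, against 6.40% higher and 6.22% lower over all genes tested. The median log2 fold change of the 15 was -0.08, against 0.01 over all genes tested. The 3 lower include Cxcl9, which passed the filter through the Fc libraries alone. The calls outside the 9 ligands were Ccl9, higher, and Cxcl9, lower. Ccl9, a CCR1 ligand, had 2.25, 1.96 and 1.97 CPM in DEL-1-Fc libraries and 0.793, 0.539 and 0.565 CPM in Fc libraries. Every DEL-1-Fc library was higher (log2 fold change 1.70, SE 0.20, edgeR adjusted p = 0.000781).

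Cxcl9, which like Cxcl10 encodes an interferon-inducible CXCR3 ligand, had 3, 7 and 15 counts in DEL-1-Fc libraries and 33, 40 and 30 counts in Fc libraries. It passed the count filter through the Fc libraries alone, where it was high, so its call was bound to that difference and is given no weight here. Cxcl11, annotated as a polymorphic pseudogene with 42.5% of its 31-base words in other genes, had 1, 0 and 0 counts with DEL-1-Fc and 1, 8 and 3 counts with Fc and was not tested. The other family genes tested were not called: Cxcl2 had a log2 fold change of 0.52 (adjusted p = 0.408), Cx3cl1 of 0.00 (0.999), Ccl25 of -0.08 (0.789), Ccl27a of -0.18 (0.672) and Cxcl16 of -0.49 (0.371). Ccl25 and Ccl27a each overlap an exon of a gene on the other strand, and 81.4% of the 31-base words of the Ccl27a transcript occur in other genes, so their counts are uncertain.

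**Figure D3:**
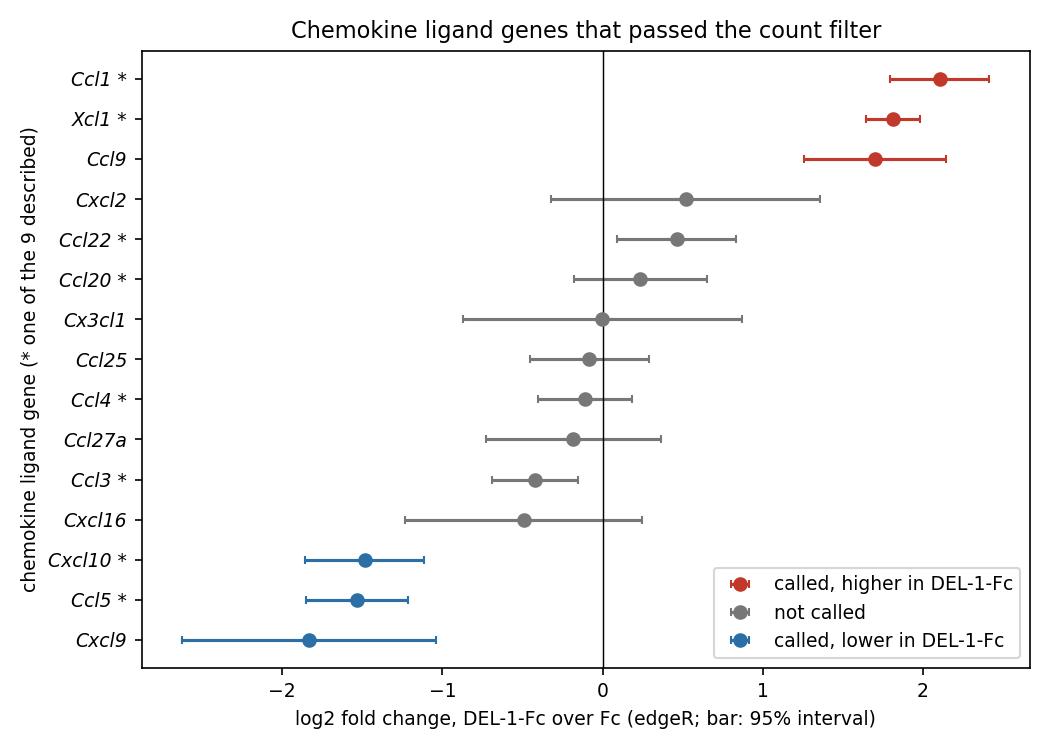
Log2 fold change, DEL-1-Fc over Fc, of the 15 chemokine ligand genes that passed the count filter (points, edgeR) with 95% intervals (bars); an asterisk marks the 9-gene set. Ccl1, Xcl1 and Ccl9 lie right of 0, Cxcl10, Ccl5 and Cxcl9 lie left of 0, and the other genes were not called.

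Several of these ligand genes are neighbours. Ccl5, Ccl9, Ccl6, Ccl3 and Ccl4 follow each other within 139 kb of chromosome 11: Ccl5 was lower, Ccl9 higher, Ccl6 nearly absent (at most 2 counts), and Ccl3 and Ccl4, which lie 13.2 kb apart, were not called. On chromosome 5, Cxcl9 and Cxcl10 lie 18.6 kb apart. Cxcl10 was called lower, and Cxcl9 had few counts in the DEL-1-Fc libraries. On chromosome 8, Ccl22 and Ccl17 lie 58.8 kb apart with Cx3cl1 between them, and none of these was called.

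Profiles over the 6 libraries were compared by the root mean square difference of log2 CPM, each gene centred on its own mean, among 9131 genes with a mean of at least 5 CPM. This is a description that follows the group difference and has no test. Nearest to Xcl1 were Hsd11b1 (distance 0.111), Trib2 (0.171) and Pou2af1 (0.199). Nearest to Ccl1 were Drc1 (0.124), Aqp3 (0.156) and Xcl1 itself (0.236). Nearest to Ccl5 were Hap1 (0.0708), Tmtc2 (0.103) and Gpt2 (0.103), and nearest to Cxcl10 were Slfn5 (0.0707), Oas3 (0.134) and Hap1 (0.134). Ccl5 and Cxcl10 were 0.109 apart, and Ccl3 and Ccl4 0.174 apart. For the ligands that were not called, the nearest genes were Atf5, Cptp and Crat for Ccl3, Eif6, Yrdc and Avpi1 for Ccl4, Ube2cbp and Tspan4 for Ccl20, and Iqsec2, Uck1 and Gdpd5 for Ccl22.

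The receptors of these ligands were read in the same cells. Of 8 receptor genes, 5 were tested, with 1 higher and 2 lower, against 6.40% higher and 6.22% lower over all genes tested. Ccr8, the receptor of CCL1, had 127.1, 123.7 and 115.4 CPM in DEL-1-Fc libraries and 207.8, 208.9 and 207.0 CPM in Fc libraries (log2 fold change -0.77, SE 0.06, edgeR adjusted p = 0.000122), lower where its ligand was higher. Cxcr3, the receptor of CXCL10, had 11.2, 9.84 and 10.1 CPM in DEL-1-Fc libraries and 6.20, 5.73 and 5.34 CPM in Fc libraries (log2 fold change 0.85, SE 0.11, adjusted p = 0.00117), higher where its ligand was lower. Ccr6 had a log2 fold change of -0.53 (adjusted p = 0.0147), which was lost without Fc replicate 1 (0.0813) or Fc replicate 3 (0.0567; 0.000174 to 0.0813 over 12 alternatives). Ccr4, the receptor of CCL17 and CCL22, was not called (-0.09, adjusted p = 0.563). Xcr1, the receptor of XCL1, had 1, 9 and 3 counts with DEL-1-Fc and 8, 5 and 12 with Fc, and Ccr1 and Ccr3 had at most 1 count in any library.

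Cxcl10, Cxcl9 and Ccl5 are known interferon-inducible ligands, and a list of 17 interferon-inducible genes, which holds Cxcl9 and Cxcl11 but neither Cxcl10 nor Ccl5, was read beside them. Of the 16 tested, 10 were called lower and 2 higher, against 6.22% lower and 6.40% higher over all genes tested, with a median log2 fold change of -0.54. One of the 10 is Cxcl9, which passed the filter through the Fc libraries alone. Usp18, which restrains type I interferon signalling, averaged 26.3 ± 3.12 CPM in DEL-1-Fc libraries and 82.6 ± 12.1 CPM in Fc libraries (SD, n = 3 each; log2 fold change -1.65, edgeR adjusted p = 0.000122). The antiviral genes Rsad2 (-1.96, 0.000222) and Oasl1 (-1.87, 0.000355) were lower in every DEL-1-Fc library. Gbp2, a guanylate-binding protein gene, went the other way, at 812.3 ± 20.0 CPM with DEL-1-Fc and 494.6 ± 36.5 CPM with Fc (log2 fold change 0.72, adjusted p = 0.000479). Whether the ligands and these genes share a cause was not tested.

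Among 33 listed regulators of chemokine transcription in T cells, all were tested, 3 were called higher and 11 lower, against 6.40% higher and 6.22% lower over all genes tested, with a median log2 fold change of -0.21. The 3 higher calls are near the share over all genes. Tbx21, which encodes the Th1 factor T-bet, averaged 71.7 ± 0.69 CPM with DEL-1-Fc and 162.1 ± 10.4 CPM with Fc (SD, n = 3 each; log2 fold change -1.18, edgeR adjusted p = 4.40e-05). Eomes, which encodes a related T-box factor, had a log2 fold change of -0.93 (adjusted p = 0.00014), and Runx3, a factor of cytotoxic and Th1 cells, of -0.89 (adjusted p = 0.000207). Egr2 averaged 87.1 ± 6.22 CPM with DEL-1-Fc and 58.6 ± 1.26 CPM with Fc (log2 fold change 0.57, adjusted p = 0.000983).

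**Figure D4:**
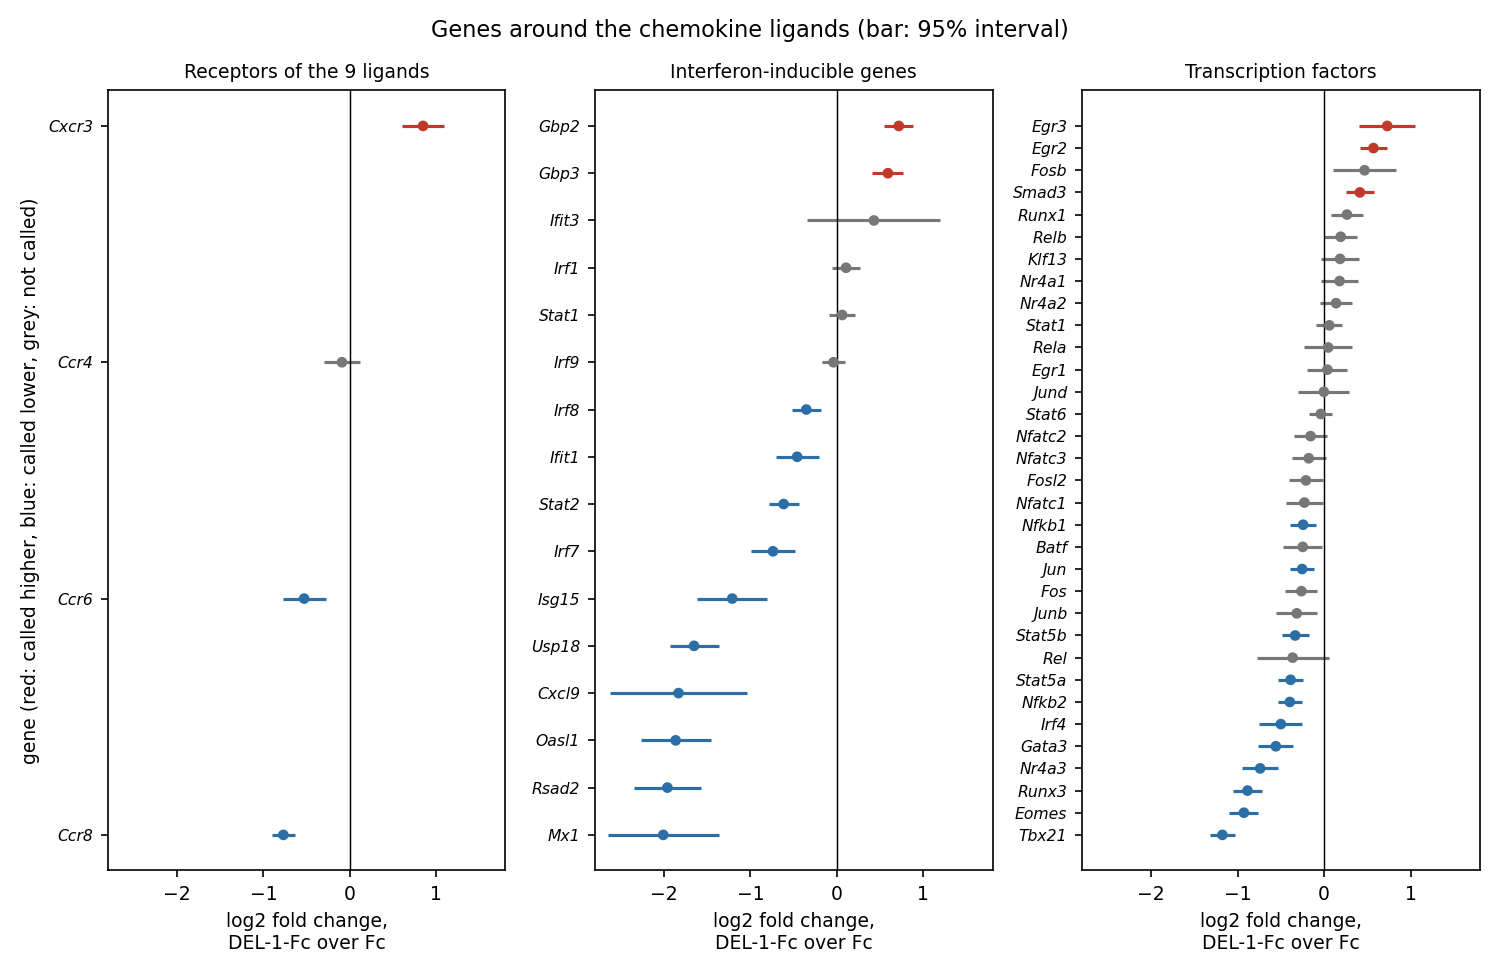
Log2 fold change, DEL-1-Fc over Fc, with 95% intervals for 4 receptors of the 9 ligands, the interferon-inducible genes and the listed regulators (transcription factors) that passed the count filter; red points were called higher, blue points lower and grey points were not called. Ccr8 lies left of 0 and Cxcr3 right of 0, and 10 of the 16 interferon-inducible genes were called lower.

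Markers of the labelled cells were high: 7 T cell markers summed to 2569 to 2851 CPM in DEL-1-Fc libraries and 2518 to 2675 CPM in Fc libraries, and 6 Treg markers to 3604 to 4111 CPM with DEL-1-Fc and 3566 to 3954 CPM with Fc, mostly from Il2ra. Within the Treg list, Foxp3 (523.3 ± 59.7 CPM with DEL-1-Fc and 359.5 ± 50.1 CPM with Fc, SD, n = 3 each, edgeR adjusted p = 0.0166) and Itgae (0.0215) were called higher and Ctla4 (0.0310) lower. Of the other cells that can make these chemokines, 7 macrophage markers summed to 4.45 to 4.72 CPM with DEL-1-Fc and 4.81 to 5.22 CPM with Fc, mostly from Cd68. The 7 dendritic cell markers summed to 6.51 to 7.06 CPM with DEL-1-Fc and 8.91 to 9.02 CPM with Fc, mostly from Zbtb46, while Clec9a, Cd209a and Siglech were at 0. The 6 NK cell markers summed to 99.7 to 113.0 CPM with DEL-1-Fc and 191.8 to 218.2 CPM with Fc, nearly all from Eomes, which T cells also express, while Ncr1 was at 0. The 2 CD8 markers summed to 11.9 to 12.8 CPM with DEL-1-Fc and 10.1 to 10.4 CPM with Fc, and 5 B cell markers to 5.80 to 7.07 CPM with DEL-1-Fc and 4.90 to 6.15 CPM with Fc. Neutrophil markers summed to at most 0.200 CPM and mast cell markers to at most 0.0911 CPM. The 5 stromal or endothelial markers summed to 84.3 to 93.7 CPM with DEL-1-Fc and 61.5 to 71.8 CPM with Fc, mostly from Pecam1 and Epcam. The rest of that list was near 0: Col1a1 averaged 0.322 CPM with DEL-1-Fc and 0.345 CPM with Fc. Col1a2 averaged 0.156 CPM with DEL-1-Fc and 0.0857 CPM with Fc, and Cdh5 0.0380 CPM with DEL-1-Fc and 0 CPM with Fc. Among these markers of other cells, Epcam (edgeR adjusted p = 0.000392), Pecam1 (0.0237) and Cd8a (0.00607) were called higher. Zbtb46 (0.0192) and Eomes (0.00014) were called lower, and the rest were not called or not tested. The part of any of these cells in the chemokine values was not tested.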

How the data were processed

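The authors deposited 1 table of raw counts per gene for each library, made with STAR (no version given) and HTSeq 0.6.0 on GRCm38 (mm10), per the submitters' processing notes. The annotation release, strand setting and handling of multi-mapping reads are not stated in the sources used here. Of 39179 identifiers, 37693 matched GENCODE M21, which gave symbols, positions and exon lengths. Totals were 33364166 to 61967687 counts per library.

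The counts went unchanged into edgeR 4.0.16 (R 4.3.3). Genes were kept by filterByExpr (at least 10 counts, total at least 15), followed by TMM scaling, the robust quasi-likelihood test of DEL-1-Fc against Fc over all 6 libraries, and Benjamini-Hochberg adjustment over the 14928 genes kept, with calls at 0.05 and no fold threshold. Every log2 fold change has DEL-1-Fc on top, its SE is its size over the root of the F statistic, and no library was dropped. Per-length levels (TPM) and profile distances (prior count 2) were computed from the same counts and were not tested. The limit set by a count of 0 is 3 counts and covers counting error only. The common biological coefficient of variation was 14.4%. Replicates of a group differed beyond counting noise (chi-square over degrees of freedom at least 18.3). The fitting script was tested on simulated data.

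Named genes are the 9 ligands, every other chemokine ligand kept by the filter, the ligands' receptors, up to 4 genes with the smallest p of each other list, and the 3 nearest profiles of each ligand, leaving out predicted genes. Some genes this rule names are left out here. Genes named outside that rule (markers, overlapping genes and ligands under the filter) were chosen after their values were seen. The ligands and lists were themselves chosen with earlier results of these data known. Alternatives were DESeq2 1.42.0, scaling by RLE, by upper quartile or by library size alone, testing without the filter, the replicate number as a block, and each library left out. Chosen after seeing the data were the same alternatives for the receptor, regulator and interferon lists, and coding transcript lengths for TPM.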

Additional observations from a re-analysis of the deposited data

How the results depend on the processing

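The calls of Xcl1 (log2 fold change 1.75 to 1.88), Ccl1 (1.97 to 2.25), Ccl5 (-1.60 to -1.50) and Cxcl10 (-1.60 to -1.37) held in all 12 alternatives, with adjusted p of at most 0.00506. Leaving out each library in turn, the count of called genes ranged from 901 to 3003 (1884 with all 6), with 428 to 1485 higher and 466 to 1518 lower. It was 901, 970 and 963 without Fc replicate 1, 2 and 3, and 3003, of which 1832 were called with all libraries, without DEL-1-Fc replicate 1. Called lower were 2 to 4 of the 9 ligands and 3 to 5 of the family, both highest without DEL-1-Fc replicate 1. Receptor calls were 1 to 2 higher and 1 to 2 lower, and regulator calls 2 to 5 higher and 7 to 14 lower. Of the interferon-inducible genes, 2 were called higher and 8 to 9 lower, against 2 and 10 with all 6 libraries. With DESeq2, 5 regulators were higher and 13 lower, while 1151 genes were higher and 1238 lower in all. The cause of these shifts was not tested, beyond each left-out library leaving 5. The summed ligand CPM kept a ratio of 1.34 to 1.49.

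With library sizes alone, 1122 genes were higher and 753 lower. Libraries with the same replicate number deviated together only weakly across all genes (r = 0.0163, 0.0885 and 0.0425). DEL-1-Fc replicate 1 was slightly nearer to Fc replicate 3 (r = 0.0382), while DEL-1-Fc replicates 2 and 3 were nearest to the Fc library of the same number. These values do not settle whether the libraries are paired, and the main fit did not treat the numbers as a pairing. Yet Ccl3, Ccl5, Ccl20 and Cxcl10 ranked the replicates in the same order in both groups, which Xcl1, Ccl1, Ccl4 and Ccl22 did not. The replicate block lowered the SE of Ccl3 (0.119 to 0.058), Ccl4 (0.129 to 0.075) and Ccl20 (0.183 to 0.108). It also lowered the SE of Cxcl10 (0.165 to 0.122), Ccl22 (0.164 to 0.130) and Ccl1 (0.137 to 0.115). The SE of Xcl1 (0.0750 to 0.0756) and Ccl5 (0.141 to 0.144) was not lowered. Whether the numbers mark pairs is not stated. With the replicate block, 1510 genes were called, 1436 of them also called without it, and 5 of the 9 ligands, since Ccl3 joined (adjusted p = 0.00954). Depth limits Ccl17, Xcr1 and the ligands at under 10 counts.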
